A study of Mus musculus with 4 samples.

Results

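The cytochromes P450, aldehyde dehydrogenases, glutathione transferases, glucuronosyltransferases and sulfotransferases that process drugs and other foreign compounds, with 3 efflux transporters, were examined in mouse intestinal crypts labelled as beta-catenin deleted and in control crypts. Members were chosen by gene symbol alone: Cyp followed by a digit except Cyp51, Gst with a class letter (a, k, m, o, p, t or z) and a digit, Ugt, Sult, Aldh followed by a digit, and Abcb1a, Abcg2 and Abcc2. The rule found 139 genes on 191 probe sets, out of 18193 genes that had a probe set named for them alone. Where a gene had several probe sets, the one with the highest mean was used. The mutant group held 2 arrays of crypts in which, per the labels, tamoxifen had induced deletion of beta-catenin, sampled at day 2 after induction. The control group held 2 arrays of control crypts, also labelled day 2. In both groups the crypts were cut out by laser capture microdissection, and their mRNA went through 2 rounds of amplification. The sources used here do not give the allele, the driver of the recombinase, the strain, age and sex of the mice, the intestinal segment or the treatment of the controls. The labels do not say whether arrays of a group came from separate mice, so that p-values measure only the spread between these arrays, which may be technical.

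Foreign compounds are cleared in steps. Phase I enzymes, above all the haem-containing cytochromes P450 of the endoplasmic reticulum, add or expose a reactive group, and aldehyde dehydrogenases oxidise the aldehydes that arise. Phase II enzymes then attach glutathione, glucuronic acid or sulfate, and transporters of the apical membrane pump the products out of the cell. In the small intestine this system is best known from villus enterocytes, where it meets compounds taken up from food, and many of its genes are inducible through the receptors Ahr, Pxr (Nr1i2) and Car (Nr1i3) or through the oxidant-responsive factor Nrf2 (Nfe2l2). The same families also hold enzymes with roles in the body's own metabolism, such as retinoic acid, steroid, proline and folate synthesis or breakdown.

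Values below are log2(signal + 5) after quantile normalisation, where the signal is the deposited array intensity. Levels of different genes were not set against each other, because each probe set has its own affinity. Of the 139 members, 82 had a mean of at least 4.79, the median of all probe sets, and were tested. The other 57 were too dim. By family, 34 of 72 cytochromes P450 passed this filter, 17 of 20 aldehyde dehydrogenases, 18 of 20 glutathione transferases, 5 of 13 sulfotransferases, 5 of 11 glucuronosyltransferases and all 3 transporters. Cyp2c54 lay just inside the filter with a mean of 4.82, and Cyp2c38 just outside it at 4.789, against an exact threshold of 4.794.

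Several features of the arrays preceded the comparison. Ctnnb1, the deleted beta-catenin gene, was at 12.02 and 11.85 in the mutant arrays, against 12.43 and 12.56 in the control arrays (difference -0.56, adjusted p = 0.785 by limma). Whether its probe set lies inside the deleted part is not known here. Mutant replicate 1 held pancreatic transcripts: the mean over 12 acinar enzyme genes was 12.73 in mutant replicate 1 and 4.75 in mutant replicate 2, against 5.11 and 5.19 in the controls. Among the 82 members, 1 was higher in this array than in each of the other 3 by at least 1 log2 unit, Aldh1l2, against 187 of all 11395 tested genes. Sult2b1 came close, at 9.69 in this array and 8.69 in mutant replicate 2, the next highest. The ratio of 5' to 3' signal of the beta-actin control probe sets, an index of how long the amplified RNA was, stood at 0.0945 and 0.0448 in the mutant arrays and 0.149 and 0.0567 in the control arrays. Over all kept probe sets, the correlation between any 2 arrays lay between 0.91 and 0.94. Hepatocyte markers, of interest because the liver is the main site of these enzymes, averaged 6.26 and 5.97 in the mutant arrays and 6.02 and 6.14 in the control arrays over 8 genes. Alb, Ahsg, Fgb and Tat were below the filter, while Cps1, Ttr, Hpd and Apoh passed it; of these Cps1, a mitochondrial urea cycle enzyme that intestinal epithelium also makes, was at 12.37 and 12.001 in the mutant arrays, against 12.70 and 12.81 in the control arrays.

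No member passed an adjusted p of 0.05 in limma. The same held for every one of the 22519 probe sets tested, a called share of 0.0%. With 1 probe set per gene, the smallest p among the members was that of Sult2b1 (adjusted p = 0.768 by limma). A second kept probe set of Gstm3, not used for the counts, had a smaller one (unadjusted p = 0.0015 by limma, against 0.0074 for Sult2b1). An unadjusted p under 0.05 was found in 6 of 82 members (7.32%), against 6.94% of all genes. The difference, mutant minus control, was positive in 41 members and negative in 41, with a median of -0.0022 against 0.0088 over all genes. Both mutant arrays lay above both control arrays in 15 members (18.3%), where the same was true of 18.9% of all genes. Both mutant arrays lay below both controls in 8 members (9.76%), against 19.2% of all genes. With a difference of at least 1 log2 unit as well, the count was 3 members above (Sult2b1, Cyp4f14 and Cyp2d22), against 2.57% of all genes, and 2 below (Cyp2c55 and Sult1c2), against 2.35% of all genes. These shares are close to the background except for the count below, which is smaller. In the remaining 59 members the groups overlapped. The split of higher against lower members moved with the scaling of the arrays: 15 against 8 became 11 against 4 with the values as deposited, where 14.9% of all genes lay above and 14.9% below. It became 23 against 4 with each array centred on its median, which shifts the median of all genes by 0.13 (18.7% of genes above and 10.1% below), and 17 against 8 with trimmed mean scaling (15.5% above and 22.9% below). The groups stayed apart under all of these scalings in 9 of the 23 genes. Of these, 7 were higher (Aldh1l1, Aldh3b1, Cyp2d22, Cyp4a31, Cyp4f14, Gstm3 and Sult2b1) and 2 lower (Cyp2c55 and Sult1c2) in mutants. The same count was not made over all genes. In 8 tested members 1 group's mean was under the filter, so that the other group alone carried them past it. They include 2 of the 15 (Cyp4a31 and Sult5a1) and 2 of the 8 (Cyp2c55 and Sult1c2), which leaves 13 and 6 without them.

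**Figure D1:**
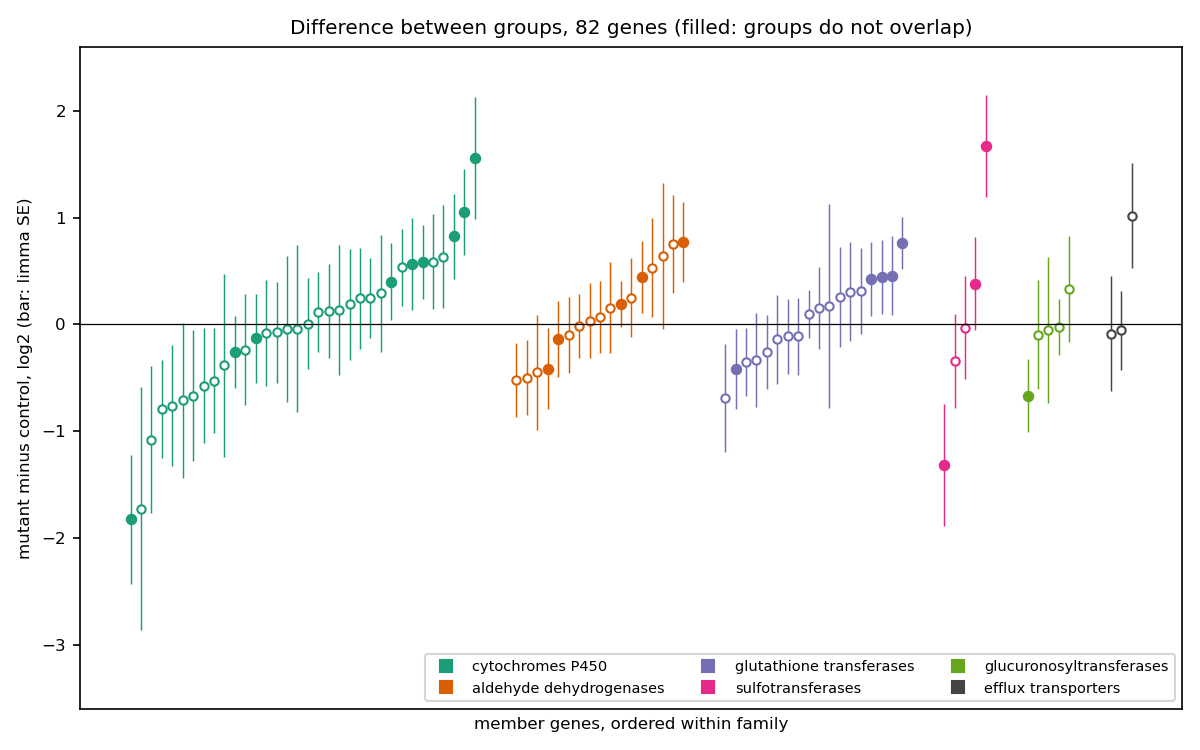
Difference between mutant and control crypts (mutant minus control, log2 units, vertical axis) for the 82 tested member genes, ordered by size within each family; the bar is the limma standard error, filled points are genes whose mutant and control arrays do not overlap (15 above and 8 below) and open points those whose arrays overlap. The differences run between -1.82 and 1.68, spread to both sides of 0 in the cytochromes P450, aldehyde dehydrogenases, glutathione transferases and sulfotransferases, and many bars cross 0.

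Among tested members, on the probe set used for each gene, the 3 with the largest non-overlapping differences were Cyp2c55, Sult2b1 and Cyp4f14. Their start regions are shown because these genes carry the largest differences, in opposite directions. Each is the 250 bases before the outermost start in RefSeq (GRCm38.p6), 5' to 3' on the gene's strand, at chr19:39006769-39007018 (plus strand) for Cyp2c55, chr7:45759613-45759862 (minus strand) for Sult2b1, which has 2 annotated starts, and chr17:32917357-32917606 (minus strand) for Cyp4f14, which has 4. Capitals mark a match to a searched motif.
Cyp2c55: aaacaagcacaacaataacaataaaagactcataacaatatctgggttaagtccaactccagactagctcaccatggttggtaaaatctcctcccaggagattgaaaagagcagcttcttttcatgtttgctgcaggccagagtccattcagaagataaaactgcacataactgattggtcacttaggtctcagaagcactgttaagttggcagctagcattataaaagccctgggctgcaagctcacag
Sult2b1: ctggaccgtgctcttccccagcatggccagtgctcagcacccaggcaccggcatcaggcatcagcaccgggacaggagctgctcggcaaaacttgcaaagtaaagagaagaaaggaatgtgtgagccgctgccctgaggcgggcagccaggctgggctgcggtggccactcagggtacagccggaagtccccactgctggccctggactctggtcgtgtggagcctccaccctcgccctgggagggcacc
Cyp4f14: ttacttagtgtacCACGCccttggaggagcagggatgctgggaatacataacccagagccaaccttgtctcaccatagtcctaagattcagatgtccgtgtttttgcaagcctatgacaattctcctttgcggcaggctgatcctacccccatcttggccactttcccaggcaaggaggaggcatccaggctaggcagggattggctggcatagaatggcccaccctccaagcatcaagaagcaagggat
The window of Cyp4f14 holds CACGC, the reverse complement of GCGTG, which is the core of the dioxin response element bound by Ahr. In Cyp2c55 and Sult2b1 none of the searched motifs is written in these windows. Other starts of 2 of these genes do hold one: Sult2b1 has GCGTG, and Cyp4f14 the antioxidant element described next.

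Start regions were available for 107 of the 139 members, matched by gene identifier. Counting every annotated start of a gene, GCGTG was found on either strand in the 250 bases before a start in 26 of the 107 (24.3%), against 30.9% of 27025 genes in the table. TGACNNNGC, the core of the antioxidant response element, was found in 9 (8.41%), against 11.5% of genes. Exact direct repeats of the nuclear receptor half-site AGGTCA, spaced as in the elements known as DR-4 and DR-3, were found in 0 members and in 4 and 2 of all genes. A TGAACT half-site everted against AGGTCA, the element known as ER-6, was found in 0 members and in 0 genes. All 3 elements share the AGGTCA half-site. Such matches are a description of letters, not of binding.

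Among the cytochromes P450, the first enzymes of phase I, both mutant arrays were above both controls in 6 of 34 tested genes and below in 3. Over all genes, 18.9% lay above and 19.2% below. The median difference of the P450s was -0.02, with a range between -1.82 and 1.56. Cyp2c55, which hydroxylates arachidonic acid and is known from the large intestine, was at 4.60 and 4.68 in the mutant arrays, against 7.41 and 5.52 in the control arrays (difference -1.82, SE 0.60, adjusted p = 0.768 by limma). The deposited signals were 20.2 and 17.9 in the mutant arrays, against 170 and 37.0 in the control arrays. The mutant arrays were alike and below the filter's 4.79, so that the gene was tested only through its level in the controls and no fold is given. Control replicate 1 was far above control replicate 2. Leaving out control replicate 1 gave a difference of -0.88, and leaving out control replicate 2 gave -2.77.

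Cyp4f14, which inactivates leukotriene B4 by omega-hydroxylation, was at 11.71 and 11.89 in the mutant arrays, against 11.29 and 9.19 in the control arrays (difference 1.56, SE 0.57, 2.95-fold, adjusted p = 0.772 by limma), with deposited signals of 4231 and 3509 in the mutant arrays, against 2232 and 571 in the control arrays. Here control replicate 2 stood apart on the low side. Leaving out control replicate 1 gave a difference of 2.61, and leaving out control replicate 2 gave 0.51. Its relative Cyp4f16 was at 9.48 and 9.12 in the mutant arrays, against 8.95 and 8.49 in the control arrays (difference 0.58, SE 0.35) and did not overlap. Cyp2d22, the mouse gene most often set beside human CYP2D6, was at 6.82 and 6.85 in the mutant arrays, against 6.18 and 5.39 in the control arrays (difference 1.05, SE 0.40, adjusted p = 0.785 by limma). A second probe set of Cyp2d22 differed by 0.34, and the first differed by 1.45 when control replicate 1 was left out and by 0.66 when control replicate 2 was.

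Non-overlapping groups were also seen in 5 other cytochromes P450. Cyp2c23, an arachidonic acid epoxygenase, was at 6.61 and 6.59 in the mutant arrays, against 6.14 and 5.41 in the control arrays (difference 0.83, SE 0.40). Cyp2s1, an Ahr-responsive enzyme of surface epithelia, was at 9.16 and 9.21 in the mutant arrays, against 8.44 and 9.13 in the control arrays, so that control replicate 2 lay just below the mutants. Cyp4a31, of the fatty acid omega-hydroxylases, was at 5.31 and 5.35 in the mutant arrays, against 4.75 and 4.78 in the control arrays, close to the filter in all 4 arrays. In the opposite direction, Cyp20a1, whose substrate is not well known, was at 8.34 and 8.12 in the mutant arrays, against 8.48 and 8.50 in the control arrays. Cyp1b1, which oxidises polycyclic aromatic compounds and oestrogens, was at 5.06 and 5.23 in the mutant arrays, against 5.25 and 5.29 in the control arrays, with mutant replicate 2 close to both controls. The smallest adjusted p of these 5 was 0.789 by limma, in Cyp2c23.

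The drug-metabolising P450s best known from intestine overlapped between the groups. Cyp3a11, a main drug oxidiser and target of Pxr, was at 12.01 and 10.86 in the mutant arrays, against 12.81 and 11.64 in the control arrays (difference -0.79, SE 0.46, adjusted p = 0.817 by limma). Replicate 1 was the higher array in both groups. Cyp3a13 was at 11.63 and 9.60 in the mutant arrays, against 11.77 and 9.54 in the control arrays, so that replicate 1 was high and replicate 2 low in both groups. Cyp3a25 was at 10.33 and 9.84 in the mutant arrays, against 11.85 and 9.66 in the control arrays. Cyp2b10, a target of Car, was at 10.57 and 8.67 in the mutant arrays, against 11.35 and 8.65 in the control arrays, with replicate 1 higher in both groups. Cyp2c65, another arachidonic acid hydroxylase of the gut, was at 9.82 and 9.50 in the mutant arrays, against 11.41 and 9.43 in the control arrays, so that control replicate 1 stood above the other 3 arrays. The same array was the highest for Cyp2c68, at 7.22 and 7.55 in the mutant arrays, against 8.62 and 7.19 in the control arrays, and for Cyp2c29, at 5.67 and 2.61 in the mutant arrays, against 7.38 and 4.35 in the control arrays. The mutant mean of Cyp2c29, 4.14, was under the filter, so that it was tested only through the controls.

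The groups also overlapped in 5 further P450s, most of them with substrates of the body's own, and in Cyp1a1. Cyp27a1, the sterol 27-hydroxylase of bile acid synthesis, was at 7.99 and 7.71 in the mutant arrays, against 8.46 and 6.87 in the control arrays. Cyp4b1, which acts on fatty acids and some plant toxins, was at 8.37 and 8.62 in the mutant arrays, against 8.51 and 7.31 in the control arrays, and Cyp4v3, a fatty acid omega-hydroxylase, at 11.35 and 10.92 in the mutant arrays, against 11.05 and 10.15 in the control arrays. Control replicate 2 was the lowest array for all 3. Cyp26b1, which degrades retinoic acid, was at 5.55 and 6.47 in the mutant arrays, against 6.16 and 5.37 in the control arrays. Cyp11a1, which cuts the side chain of cholesterol at the start of steroid synthesis, was at 5.17 and 5.98 in the mutant arrays, against 5.26 and 4.62 in the control arrays. Cyp1a1, the classical inducible target of Ahr, was at 6.81 and 4.54 in the mutant arrays, against 5.50 and 5.95 in the control arrays, with mutant replicate 1 highest and mutant replicate 2 lowest.

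**Figure D2:**
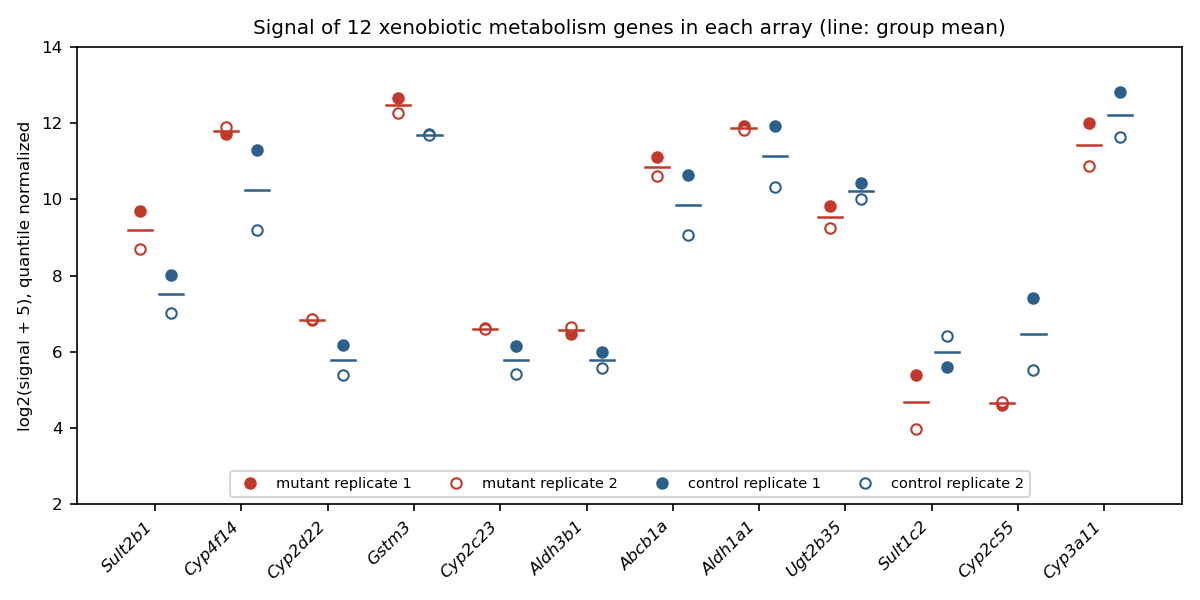
Level of 12 member genes in each array, as log2(signal + 5) after quantile normalisation (vertical axis); red is mutant and blue control, filled circles are replicate 1, open circles replicate 2, and lines are group means. The mutant arrays lie above both controls for Sult2b1, Cyp4f14, Cyp2d22, Gstm3, Cyp2c23 and Aldh3b1 and below both for Ugt2b35, Sult1c2 and Cyp2c55, whereas Abcb1a, Aldh1a1 and Cyp3a11 overlap.

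The aldehyde dehydrogenases had 3 of 17 tested genes with both mutant arrays above both controls and 2 below (all genes: 18.9% and 19.2%). Their differences lay between -0.52 and 0.77 with a median of 0.07. Aldh3b1, which oxidises lipid-derived aldehydes, was at 6.48 and 6.64 in the mutant arrays, against 6.002 and 5.57 in the control arrays (difference 0.77, SE 0.38, adjusted p = 0.789 by limma). Aldh1l1, the cytosolic enzyme that oxidises formyltetrahydrofolate, was at 8.65 and 8.98 in the mutant arrays, against 8.48 and 8.26 in the control arrays (difference 0.44, SE 0.34). Aldh9a1, which acts on amino-aldehydes and takes part in carnitine synthesis, was at 12.45 and 12.49 in the mutant arrays, against 12.15 and 12.41 in the control arrays (difference 0.19, SE 0.22). The separation was small in Aldh9a1, whose 4 arrays lie in a narrow range.

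Aldh1a1 and Aldh1a3 are among the Aldh1a genes whose enzymes oxidise retinaldehyde to retinoic acid. Aldh1a1 was at 11.93 and 11.83 in the mutant arrays, against 11.93 and 10.33 in the control arrays, with 3 arrays alike and control replicate 2 below them. Leaving out control replicate 1 turned its difference into 1.55, and leaving out control replicate 2 into -0.05. Aldh1a3 was at 7.09 and 7.15 in the mutant arrays, against 7.88 and 7.19 in the control arrays (difference -0.41, SE 0.38), where the groups did not overlap and control replicate 2 lay close to the mutants. Aldh1a7, a close relative of Aldh1a1, was at 9.01 and 9.83 in the mutant arrays, against 9.45 and 8.32 in the control arrays, again with control replicate 2 lowest.

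Among mitochondrial members, Aldh2, the main acetaldehyde oxidiser, was at 9.68 and 9.78 in the mutant arrays, against 9.66 and 9.82 in the control arrays, nearly level in all arrays. Aldh1b1, a related acetaldehyde and retinaldehyde oxidiser, was at 10.96 and 11.96 in the mutant arrays, against 11.73 and 12.18 in the control arrays (difference -0.50, SE 0.35), and mutant replicate 1 was the lowest. Aldh18a1, which carries out the first steps of proline synthesis, was at 11.38 and 10.53 in the mutant arrays, against 11.22 and 11.72 in the control arrays (difference -0.52, SE 0.35). Its 4 other kept probe sets differed by between -0.90 and -0.52, each on the same side. Aldh1l2, the mitochondrial partner of Aldh1l1, was at 7.07 and 4.93 in the mutant arrays, against 5.82 and 4.90 in the control arrays, high in the array with pancreatic transcripts and alike in mutant replicate 2 and control replicate 2. Aldh7a1, which detoxifies lysine-derived aldehydes, was at 6.25 and 6.37 in the mutant arrays, against 6.39 and 6.49 in the control arrays, without overlap.

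The glutathione transferases attach glutathione to electrophiles. Both mutant arrays were above both controls in 4 of 18 tested genes and below in 1 (all genes: 18.9% and 19.2%), with a median difference of 0.13. Gstm3, a mu class enzyme, was at 12.67 and 12.26 in the mutant arrays, against 11.71 and 11.69 in the control arrays (difference 0.76, SE 0.24, 1.70-fold, adjusted p = 0.768 by limma). The controls were nearly equal here. A second probe set of Gstm3 differed by 1.70 with an SE of 0.37, on the same side. The probe set used is of a kind that can bind several near-identical transcripts, and mu class genes are close copies of one another. Gstm4 was at 8.11 and 8.09 in the mutant arrays, against 7.82 and 7.51 in the control arrays (difference 0.43, SE 0.35) and Gstm1 at 9.19 and 8.91 in the mutant arrays, against 9.22 and 8.26 in the control arrays, where the groups overlapped.

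Gstk1, the kappa class enzyme of mitochondria and peroxisomes, was at 9.10 and 8.88 in the mutant arrays, against 8.79 and 8.31 in the control arrays (difference 0.44, SE 0.35). Gstp3, of the pi class, was at 6.25 and 6.12 in the mutant arrays, against 5.66 and 5.80 in the control arrays (difference 0.45, SE 0.37), while Gstp1, the most widely expressed pi enzyme, was at 12.04 and 12.25 in the mutant arrays, against 12.11 and 11.98 in the control arrays (difference 0.10, SE 0.23) and overlapped. The alpha class overlapped too. Gsta4, which removes hydroxynonenal from lipid peroxidation, was at 10.51 and 9.98 in the mutant arrays, against 10.70 and 9.28 in the control arrays and Gsta3 at 5.23 and 5.08 in the mutant arrays, against 5.17 and 4.52 in the control arrays. Gsta2 was at 8.38 and 7.25 in the mutant arrays, against 9.38 and 5.90 in the control arrays, the widest distance between the controls of any of the 82 members. Gsto1, which reduces dehydroascorbate and methylated arsenic, was at 11.90 and 11.59 in the mutant arrays, against 12.52 and 11.67 in the control arrays (difference -0.35, SE 0.31), and its second probe set differed by 0.11, on the other side of 0. Gstz1, which isomerises maleylacetoacetate in tyrosine breakdown, was at 6.08 and 6.30 in the mutant arrays, against 6.39 and 6.83 in the control arrays (difference -0.42, SE 0.37), the 1 transferase with both mutants below both controls.

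The sulfotransferases, which transfer sulfate to hydroxyl groups, held the highest positive difference of all tested members on the probe set used for each gene. Sult2b1, which sulfates cholesterol and other steroids, was at 9.69 and 8.69 in the mutant arrays, against 8.01 and 7.02 in the control arrays (difference 1.68, SE 0.48, 3.20-fold). Its mean was 9.19 ± 0.71 in mutants and 7.51 ± 0.70 in controls (SD, n = 2 each). The deposited signals were 1069 and 329 in the mutant arrays, against 249 and 124 in the control arrays. Replicate 1 was the higher array in each group, and the arrays of a group lay further apart than the lower mutant and the higher control array did. With any single array dropped, the difference of Sult2b1 ranged between 1.18 and 2.18. Its sign could not change in this way, because the groups did not overlap. Sult1c2 was at 5.40 and 3.96 in the mutant arrays, against 5.59 and 6.41 in the control arrays (difference -1.32, SE 0.57, adjusted p = 0.789 by limma). Its mutant mean was under the filter too, so that it was tested only through the controls. The difference was -2.04 without mutant replicate 1 and -0.60 without mutant replicate 2. The weakly hybridised Sult5a1 was at 5.10 and 5.23 in the mutant arrays, against 4.75 and 4.81 in the control arrays. Sult1b1, known for thyroid hormone sulfation, was at 10.93 and 10.12 in the mutant arrays, against 11.26 and 9.85 in the control arrays, and Sult1d1, known for catecholamine sulfation in mice, at 10.14 and 9.89 in the mutant arrays, against 11.04 and 9.67 in the control arrays, both with overlap and both highest in control replicate 1.

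Of the 5 glucuronosyltransferases tested, which attach glucuronic acid to steroids, bile acids and drugs, 1 did not overlap (all genes: 18.9% above and 19.2% below). Ugt2b35 was at 9.83 and 9.25 in the mutant arrays, against 10.42 and 9.999 in the control arrays (difference -0.67, SE 0.34, adjusted p = 0.798 by limma), below the controls in both mutants. Ugt2b34 was at 11.92 and 11.71 in the mutant arrays, against 12.08 and 11.60 in the control arrays and Ugt2a3 at 9.21 and 9.11 in the mutant arrays, against 10.08 and 8.43 in the control arrays. Ugt2b5 was at 9.43 and 8.77 in the mutant arrays, against 10.34 and 7.95 in the control arrays and Ugt2b36 at 7.70 and 8.34 in the mutant arrays, against 8.37 and 7.01 in the control arrays. Control replicate 1 was the highest array for all 5 genes. The Ugt1a genes share probe sets that name no single gene.

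All 3 efflux transporters overlapped between the groups. Abcb1a, the intestinal P-glycoprotein, was at 11.12 and 10.60 in the mutant arrays, against 10.63 and 9.05 in the control arrays (difference 1.02, SE 0.49, 2.03-fold, adjusted p = 0.789 by limma). Control replicate 1 lay at the level of mutant replicate 2, and control replicate 2 well below both. With control replicate 1 left out the difference was 1.81, with control replicate 2 left out it was 0.23, and a second probe set differed by 0.35. Abcg2, which exports sulfate conjugates and urate, was at 9.55 and 9.85 in the mutant arrays, against 10.18 and 9.33 in the control arrays (difference -0.05, SE 0.37). Abcc2, which exports glutathione and glucuronide conjugates, was at 8.80 and 8.58 in the mutant arrays, against 9.65 and 7.91 in the control arrays (difference -0.09, SE 0.54), with both mutants between the controls.

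The values of single members showed a difference between arrays of the same group. Control replicate 1 was at least 1 log2 unit above control replicate 2 in 28 of 82 members (34.15%), against 5.86% of all tested genes. The reverse held for 0 of 82 members, against 5.12% of all genes. In the mutants, replicate 1 was higher by at least 1 in 10 members (12.2%), against 6.63% of all genes, and replicate 2 in 0, against 3.62%. Replicate 1 was the higher array in both groups in 43 of 82 members (52.44%), against 23.55% of all genes. The median distance was 0.30 between the mutant arrays and 0.79 between the control arrays, against 0.36 and 0.39 over all genes. The median size of the difference between groups was 0.34 in the members and 0.31 over all genes. In the median the controls therefore lay further apart than the group means did, in these members and, by less, over all genes. Means of 2 arrays vary less than single arrays, so that the 2 distances are unlike measures.

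**Figure D3:**
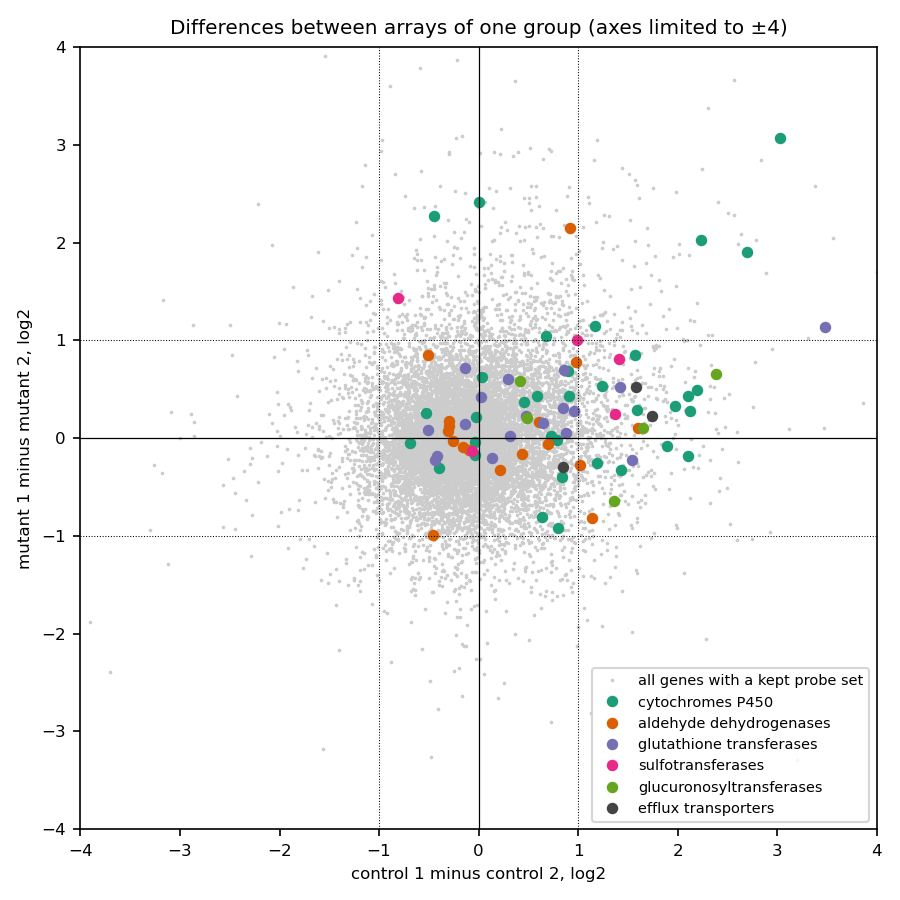
Difference between replicate 1 and replicate 2 of the mutants (vertical axis) against that of the controls (horizontal axis), both in log2 units, for all 11395 tested genes (grey) and the 82 members, coloured by family; the axes stop at 4 and leave out 40 genes, none of them a member. Members lie mostly right of 0, and 28 lie beyond 1 on the horizontal axis, whereas none lies beyond -1 on either axis.

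By family, the members with control replicate 1 at least 1 above control replicate 2 were 15 of 34 cytochromes P450, 3 of 17 aldehyde dehydrogenases, 3 of 18 glutathione transferases, 2 of 5 sulfotransferases, 3 of 5 glucuronosyltransferases and 2 of 3 transporters. Within the P450s they included 5 of 7 Cyp2c genes and all 3 Cyp3a genes. The median level of the 82 members was 8.18 and 8.05 in the mutant arrays and 8.35 and 7.44 in the control arrays, against 7.46 and 7.41 and 7.39 and 7.46 over all genes in the same order. Control replicate 2 thus stood apart on the low side. The highest array was mutant replicate 1 for 19 members, mutant replicate 2 for 13, control replicate 1 for 35 and control replicate 2 for 14. Over all 11395 genes these counts were 2747, 2833, 2522 and 3286 in the same order. Aldh1a1 was tied between mutant replicate 1 and control replicate 1.

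**Figure D4:**
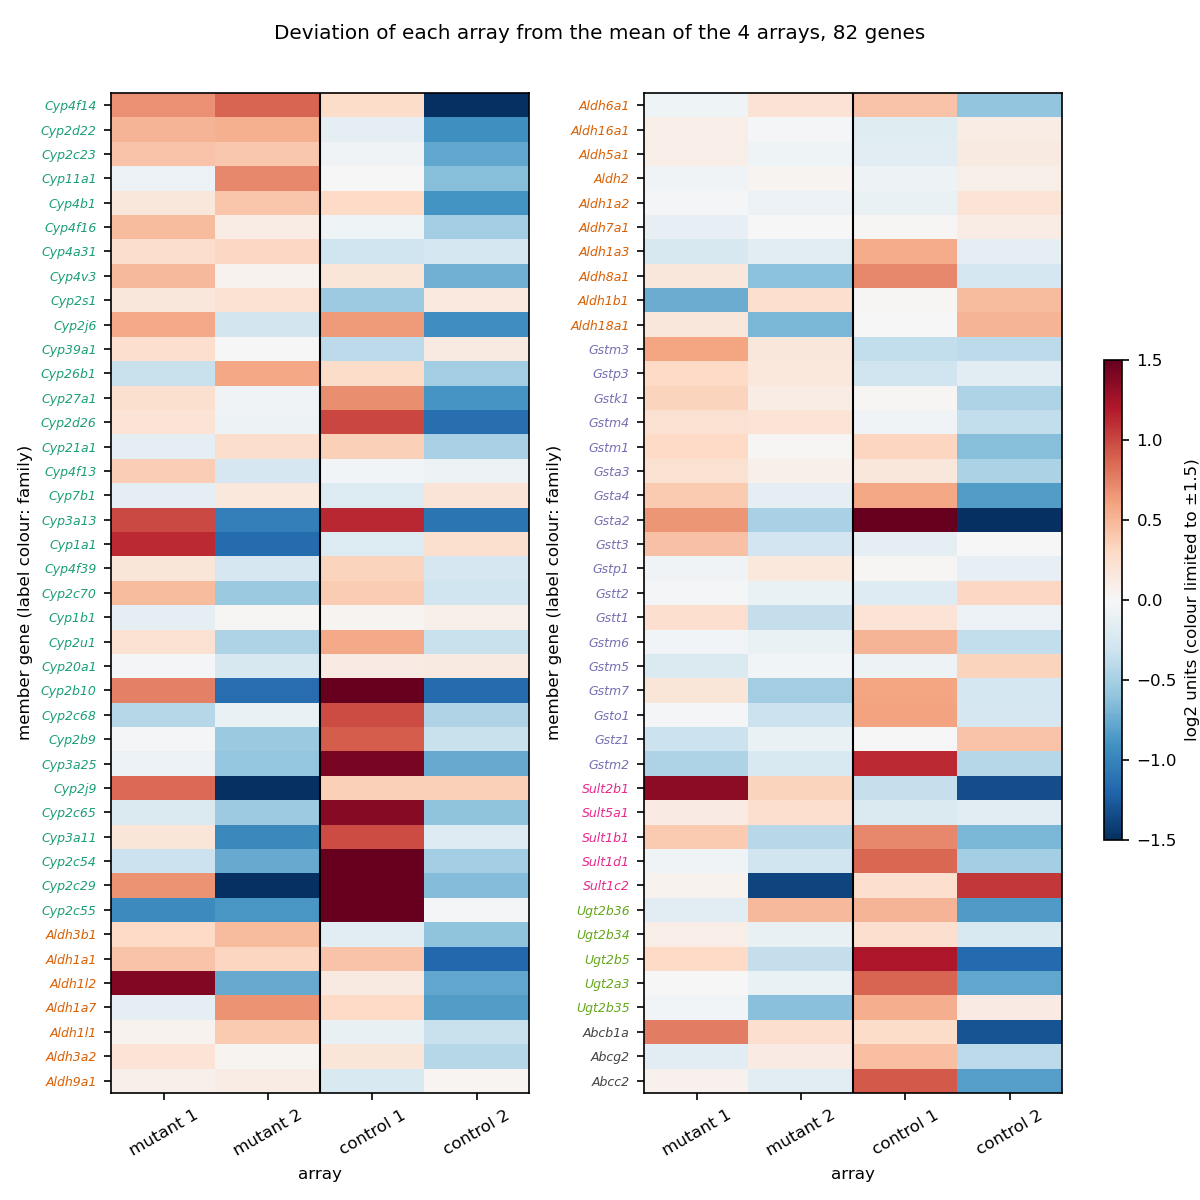
Deviation of each array from the gene's mean over the 4 arrays, in log2 units (colour, limited to 1.5 on either side), for the 82 member genes grouped by family and ordered by the difference between groups. The control replicate 1 column is red for most Cyp2c, Cyp3a and Ugt genes, and the control replicate 2 column is blue for most of the genes that lie higher in the mutants.

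Which control array entered the comparison changed its balance. Without control replicate 1, the mutants lay above the remaining control in 49 of 78 tested members (62.8%, against 32.1% of genes) and below it in 18 (23.1%, against 37.1%), with a median difference of 0.36. Without control replicate 2, they lay above in 24 of 85 (28.2%, against 38.6%) and below in 40 (47.1%, against 33.1%), with a median of -0.20. Leaving out mutant replicate 1, the array with pancreatic transcripts, gave 20 of 81 above (24.7%, against 33.9% of genes). It gave 22 below (27.2%, against 33.8%), with a median of -0.07. Leaving out mutant replicate 2 gave 29 of 86 above (33.7%, against 34.1%) and 11 below (12.8%, against 33.3%), with a median of 0.16. No member passed the test in any of the 4 comparisons. The remaining array of a group was assumed to vary like those of the other group.

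Markers of other cells were set beside these values. Enterocyte markers (13 genes, all tested, none at 0) averaged 11.39 and 10.43 in the mutant arrays and 11.16 and 10.25 in the control arrays, and their summed deposited signal was 76138 and 49438 in the mutants and 48243 and 38135 in the controls. The sums are not scaled, and the trimmed means of the whole arrays were 169 and 111 in mutants and 130 and 130 in controls. By the normalised averages, enterocyte markers were higher in replicate 1 of both groups. So were 43 of the 82 members and the beta-actin ratio. Crypt base stem cell markers averaged 7.48 and 7.77 in mutants and 8.45 and 8.99 in controls, with both mutants below both controls in 8 of 9 genes, and proliferation markers 8.03 and 8.36 against 9.27 and 9.57, in 9 of 9 genes. Leukocyte markers averaged 6.46 and 5.93 in mutants and 6.32 and 5.48 in controls, and tuft cell markers 5.80 and 4.81 against 5.29 and 5.01, both lists higher in replicate 1 of each group. Both mutants were above both controls in 5 of 9 goblet cell markers, which averaged 10.85 and 10.55 in mutants and 9.68 and 10.57 in controls, and in 5 of 10 enteroendocrine markers, at 8.40 and 8.46 in mutants and 7.82 and 7.78 in controls. The goblet averages lean on Retnlb, the most uneven gene of that list, at 7.17 and 4.73 in mutants and 3.04 and 9.21 in controls. Paneth cell markers, at 9.57 and 9.54 in mutants and 9.85 and 10.08 in controls, were below in 4 of 6 genes. In such pooled tissue, fewer cells of a type and less RNA per cell cannot be told apart. The part of these cell types or of RNA length in the levels of the members was not tested.

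**Figure D5:**
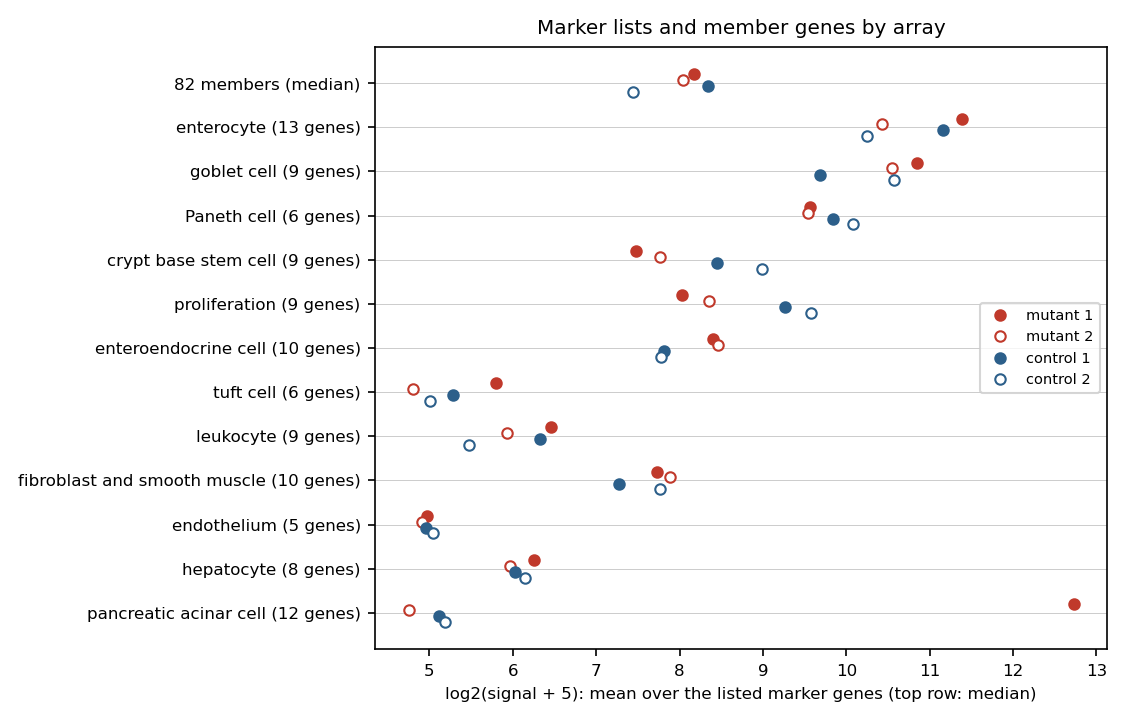
Mean level of marker gene lists in each array, as log2(signal + 5) after quantile normalisation (horizontal axis), with the median of the 82 members in the top row; red is mutant, blue control, filled replicate 1 and open replicate 2. Enterocyte and leukocyte markers are higher in replicate 1 of each group, stem cell and proliferation markers are lower in both mutants, and pancreatic acinar markers are high in mutant replicate 1 alone.

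Other genes that regulate or assist these enzymes were counted from lists. None passed the test, with the same background of 18.9% of genes above and 19.2% below. Of the receptors and regulators, 5 of 12 tested genes had both mutant arrays above both controls and 1 below (median 0.25). Maff, a small Maf partner of Nrf2, was at 7.40 and 5.73 in the mutant arrays, against 4.58 and 5.01 in the control arrays (difference 1.77, SE 0.57). Its highest array was mutant replicate 1, the array with pancreatic transcripts. The control mean of Maff was just under the filter, so that the mutant arrays carried it past. At the 75th percentile filter Maff was too dim. Ppara, the fatty acid receptor that controls Cyp4a genes in liver, was at 9.93 and 10.41 in the mutant arrays, against 9.77 and 9.42 in the control arrays (difference 0.58, SE 0.33), and Rxra, the shared partner of Pxr and Car, at 8.74 and 9.07 in the mutant arrays, against 8.30 and 8.58 in the control arrays (difference 0.47, SE 0.34). The receptors themselves differed by 0.06 (Nr1i2), 0.19 (Nr1i3) and -0.14 (Ahr), and Nfe2l2 by 0.33.

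Of 10 tested Nrf2 target genes, 3 lay above and 1 below, and 9 of the 10 differences were positive (median 0.65, against 0.0088 over all genes). Nqo1, Cbr3, Gclc, Gclm and Gsr were counted in the phase I or phase II lists as well, Gsr among those above both times. Osgin1, an oxidant-induced growth inhibitor, was at 7.36 and 7.89 in the mutant arrays, against 6.22 and 6.07 in the control arrays (difference 1.48, SE 0.37, adjusted p = 0.768 by limma). Srxn1, which repairs oxidised peroxiredoxins, was at 9.82 and 9.02 in the mutant arrays, against 8.82 and 7.85 in the control arrays (difference 1.08, SE 0.44). Gsr, which regenerates glutathione, was at 10.59 and 10.50 in the mutant arrays, against 9.48 and 9.91 in the control arrays (difference 0.85, SE 0.30). For each the lower mutant array was above the higher control.

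Of the other phase II enzymes 3 of 14 lay above and 0 below (median 0.19), and Mgst2, a membrane-bound transferase that also makes leukotriene C4, was at 11.91 and 12.58 in the mutant arrays, against 11.30 and 11.03 in the control arrays (difference 1.08, SE 0.29, adjusted p = 0.768 by limma), with Mgst3 at 10.35 and 10.15 in the mutant arrays, against 9.73 and 9.56 in the control arrays (difference 0.60, SE 0.30). Other phase I enzymes had 4 of 29 above and 4 below (median 0.0023). Fmo5, a flavin monooxygenase, was at 11.10 and 9.54 in the mutant arrays, against 9.43 and 8.37 in the control arrays (difference 1.42, SE 0.55). It was highest in mutant replicate 1, the array with pancreatic transcripts. Maob, which oxidises amines, was at 10.46 and 10.70 in the mutant arrays, against 10.20 and 8.96 in the control arrays (difference 1.001, SE 0.42). Akr1c14, a hydroxysteroid dehydrogenase, was at 7.96 and 6.85 in the mutant arrays, against 9.41 and 8.09 in the control arrays (difference -1.34, SE 0.54), with both mutants below both controls.

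Of the other transporters, 6 of 13 lay above and 0 below (median 0.28). Slco2b1, an uptake carrier of organic anions, was at 9.22 and 9.42 in the mutant arrays, against 8.15 and 8.72 in the control arrays (difference 0.88, SE 0.35). Slc51a and Slc51b, the subunits of the basolateral bile acid exporter, were at 8.70 and 8.56 in the mutant arrays, against 8.25 and 7.41 in the control arrays and at 7.54 and 7.82 in the mutant arrays, against 7.24 and 6.08 in the control arrays, with differences of 0.80 and 1.02. The P450 partners had 1 of 6 above and 0 below (median 0.16). Cyb5b, Cyb5r3 and Cyb5a, which pass electrons by way of cytochrome b5, differed by 0.43, 0.40 and 0.27. Por, the P450 reductase, was not analysed here.

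Among the 57 members too dim to test, both mutant arrays were above both controls in 9, where 16.5% of the 6798 genes below the filter were, and below in 7, against 15.6% of these genes. With a difference of at least 1 log2 unit as well, 6 were above (Aldh3a1, Cyp1a2, Cyp7a1, Sult1e1, Sult3a1 and Sult4a1), against 5.85% of these genes, and 2 below (Cyp2g1 and Ugt2b38), against 5.13%. At such signals the mismatch-subtracted values are noisy, and no test was run. Sult1a1 and Ugt8a were also below the filter, and Gsta1 and Ugt1a1 had no probe set of their own. For 17 tested members other kept probe sets existed, and in 5 of them (Aldh16a1, Aldh2, Gsta3, Gstm1 and Gsto1) at least 1 lay on the other side of 0.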

How the data were processed

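Expression was measured on 4 single-colour arrays, 2 of mutant and 2 of control crypts. The values deposited by the authors are linear intensities, 1 per probe set. MAS5 produced them, per the submitters' processing notes; neither its version nor its target level is given in the sources used here. The method subtracts mismatch signal, so dim values are noisy, and the scale of log2(intensity + 5) understates the change of dim genes. Symbols came from the platform annotation: of 45037 non-control probe sets, 34945 had 1 symbol, 932 several and 9160 none, and no gene was named from a probe set with several.

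From the intensities, log2 values were quantile normalised because the 2% trimmed means of the arrays differed by up to 1.53-fold (169 and 111 in mutants, 130 and 130 in controls). Probe sets with a mean of at least 4.79, the median, were kept (22519, for 11395 genes) and compared with limma 3.58.1 (R 4.3.3), lmFit and eBayes with an intensity trend, two-sided, and adjusted by Benjamini-Hochberg over the kept probe sets. Residual degrees of freedom were 2 and prior ones 6.4. Each SE is that of this fit. A permutation test of 2 against 2 arrays cannot go below p = 0.333, and none was run. Of the 82 tested members, 11 were represented by a probe set with the suffix _s_at or _x_at, which may bind related transcripts. With 2 arrays a group, their number limits the precision. The fit was also run on simulated data with independent noise in each array. Such noise lacks a shift shared by many genes, as seen here between the control arrays, so that the simulation does not cover it.

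The members, gene lists and tests were chosen with earlier results of these data known. Named in each family were the 3 genes with the highest mean, up to 4 with the smallest p among non-overlapping groups, those with a non-overlapping difference of at least 1, and a list of intestinal anchor genes. From each other list up to 3 were named by smallest p. Cyp3a25, Cyp2c68, Cyp2c29, Cyp4f16, Cyp4a31, Cyp20a1, Aldh1a7, Aldh7a1, Gsta2, Gstz1, Ugt2b36 and the receptors Nr1i2, Nr1i3, Ahr and Nfe2l2 were added after their values were seen. Alternatives covered scaling, pseudocount, filter, variance model, choice of probe set, a replicate block and leaving out each array.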

Additional observations from a re-analysis of the deposited data

How the results depend on the processing

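No member passed the test under any of the 15 alternatives. Members with both mutant arrays above both controls numbered 15 of 82 (18.9% of all genes), but 23 with median centring (18.7% of genes), 24 of 139 with no filter (18%) and 9 of 52 with a filter at the 75th percentile (19.8%). Those below numbered 8 (19.2% of genes), but 4 with the values as deposited (14.9%), 4 with median centring (10.1%), 15 with no filter (17.9%) and 3 with the stricter filter (20.4%). The filters change how many genes are tested; the cause of the scaling shifts was not tested. Leaving out single arrays gave 20 to 49 above (32.1% to 38.6% of genes) and 11 to 40 below (33.1% to 37.1% of genes). The median difference then lay between -0.20 and 0.36. A group of 1 array separates more easily by construction. The median over members was 0.10 with deposited values (all genes 0.01), 0.22 with median centring (0.13) and 0.03 with trimmed mean scaling (-0.06). Probe sets called among all kept numbered 0 in the reported fit, 2 with deposited values, 102 with median centring, 20 without mutant replicate 1 and 90 without mutant replicate 2. The labels number the arrays 1 and 2 in each group, but nothing says what a number stands for: the difference between replicates 1 and 2 of the mutants correlated with that of the controls at 0.03 over kept probe sets and 0.26 over the 82 members. A fit with the replicate number as a block called 1 probe set and 0 members, and kept 15 and 8. It gave 9 members (11%) an unadjusted p under 0.05 by limma, against 8.73% of all genes. In the reported fit this held for 6 members (7.32%) and 6.94% of all genes. None of the 23 tested members with non-overlapping groups changed sign under an alternative that kept it; leaving out an array cannot change their sign. Of the 59 with overlapping groups, 18 changed sign under another scaling, pseudocount or probe set rule (reported differences up to 0.35 in size) and 49 when an array was left out (up to 0.76). At the 75th percentile filter 30 of the 82 members were too dim.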

Other observations

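Some probe sets carry several gene symbols and name no single gene. All 8 annotated Ugt1a genes, which glucuronidate bilirubin, phenols and many drugs, share 3 probe sets. The first was at 12.49 and 12.23 in the mutant arrays, against 12.34 and 12.24 in the control arrays (difference 0.07, SE 0.22). The second was at 12.81 and 12.64 in mutants, against 12.75 and 12.70 in controls. The third was at 10.14 and 9.64 in mutants, against 10.70 and 9.61 in controls (difference -0.26, SE 0.41). The Ugt1a signal was thus nearly level in all arrays on the first and second probe sets, and highest in control replicate 1 on the third.

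A probe set shared by Gsta1, Gsta2 and Gm3776 was at 11.90 and 10.87 in mutants, against 12.23 and 10.47 in controls (difference 0.03, SE 0.55), with replicate 1 higher in both groups. A probe set shared by Cyp4a31 and Cyp4a10, fatty acid omega-hydroxylases, was at 5.78 and 7.97 in mutants, against 5.20 and 4.77 in controls (difference 1.89, SE 0.66, adjusted p = 0.768 by limma). Mutant replicate 2 was far above the other arrays there, and the groups did not overlap. A probe set shared by the Cyp3a41 genes was at 5.22 and 3.85 in mutants, against 6.49 and 4.07 in controls, again with replicate 1 the higher array in both groups.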
